A study of Mus musculus with 45 samples.

Results

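The tubulin genes described here are 6 alpha-tubulins (Tuba3b, Tuba3a, Tuba1a, Tuba1b, Tuba1c and Tuba4a) and 4 beta-tubulins (Tubb2b, Tubb4b, Tubb5 and Tubb6), 10 of the 26214 genes of an RNA-seq table of mouse oocytes and embryos. The set was put together by name around Tuba3b, which was chosen by its TPM level, higher with K36M than in controls at both stages examined. The K36M values of the members are therefore given as a description, without tests, and the tests below concern the change from oocyte to embryo, which was not used in the choice.

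The study asked how histone H3 lysine 36 methylation is linked to DNA methylation and transcription in oocytes, by expressing H3.3 with lysine 36 replaced by methionine (K36M), which interferes with methylation of this residue. RNA was measured in fully grown oocytes (FGOs) from females aged 3 to 4 weeks on a hybrid C57BL/6 and 129 background, in 3 control and 3 K36M libraries of 5 pooled FGOs each, and in single late two-cell embryos made by in vitro fertilization with JF-1 sperm and collected 31 to 32 h later, in 7 control and 8 K36M oocyte-derived libraries. Control females were H3f3b K36M-flox/+ and K36M females were H3f3b K36M-flox/+; Gdf9-Cre, so the conditional allele was present in both groups. The Gdf9 promoter drives Cre in oocytes, where the H3f3b locus is switched to make tagged H3.3K36M, and a K36M oocyte-derived embryo may itself have inherited either the K36M or the wild-type H3f3b allele. An 8th control embryo (replicate 4), left out by the study for a technical problem, was not used except where stated.

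Microtubules are polymers of alpha- and beta-tubulin heterodimers, and they form the spindle that segregates chromosomes in oocyte meiosis and in the first embryonic cleavages. Each subunit is encoded by several genes whose proteins are nearly alike over most of their length and differ mainly at their C-terminal ends. Cells also adjust tubulin mRNA to the amount of free dimer: the adaptor TTC5 recognises the first residues of a newly made tubulin chain on the ribosome, and with SCAPER it recruits the CCR4-NOT deadenylase subunit CNOT11 to the mRNA.

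Positions below follow RefSeq on GRCm38.p6 (mm10). Tuba3a (chr6:125278270-125286081, minus strand) and Tuba3b (chr6:145615963-145621477, plus strand) lie far apart on chromosome 6 and each has 5 exons. Their coding parts have 1353 bases each and differ at 41 positions, an identity of 97.0%. The other alpha-tubulin members were 83.5 to 85.0% identical to Tuba3b in their coding bases, and alpha- and beta-tubulin members were 51.3 to 54.6% identical to each other. The coding stretches in which Tuba3a and Tuba3b differ most are shown because they let a sequencing read be assigned to one of the genes. They hold 8 differing bases in 53, given in capitals, and correspond to coding bases 311 to 363 (Tuba3a at chr6:125282365-125282417, minus strand; Tuba3b at chr6:145618816-145618868, plus strand).
Tuba3a: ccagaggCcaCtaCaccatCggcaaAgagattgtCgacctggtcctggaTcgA
Tuba3b: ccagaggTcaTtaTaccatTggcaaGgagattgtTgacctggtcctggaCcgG
By contrast, coding bases 430 to 584 were the same in both genes, a run of 155 bases that is longer than a read.

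Upstream of the start site the genes were less alike. The 250 bases before the start of Tuba3a (chr6:125286082-125286331, minus strand) and Tuba3b (chr6:145615713-145615962, plus strand), taken from RefSeq promoter sequences of GRCm38.p6, are shown because the genes differ more here than in their coding bases. Capitals mark matches on either strand to the CCAAT box (CCAAT) and the GC box (GGGCGG), and no TATA box (TATAAA) was present in either.
Tuba3a: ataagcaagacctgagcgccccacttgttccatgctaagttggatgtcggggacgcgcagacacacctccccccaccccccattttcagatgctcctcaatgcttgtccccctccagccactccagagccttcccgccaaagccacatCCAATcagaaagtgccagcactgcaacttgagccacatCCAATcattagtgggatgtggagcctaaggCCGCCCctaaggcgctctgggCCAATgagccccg
Tuba3b: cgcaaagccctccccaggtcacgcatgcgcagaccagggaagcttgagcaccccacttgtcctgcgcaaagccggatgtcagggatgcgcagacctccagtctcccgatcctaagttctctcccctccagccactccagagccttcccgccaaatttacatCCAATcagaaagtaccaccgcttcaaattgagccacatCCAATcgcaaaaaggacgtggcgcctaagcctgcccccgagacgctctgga
Over the 282 columns of their alignment, 59.9% were identical. In these 250 bases Tuba3a held 3 CCAAT matches and 1 GC box match, while Tuba3b held 2 CCAAT matches and none to the GC box. In the same 250 bases before the start, 33.8% of 32851 RefSeq promoters held CCAAT, 32.7% GGGCGG and 12.4% TATAAA. Promoter sequence was found for 8 of the 10 members. Tubb4b had 5 CCAAT matches, Tubb5 had 2, Tuba1a and Tuba1c had 1 each, and Tuba1b and Tuba4a had none.

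The first 30 coding bases are shown for 8 members because the TTC5 pathway reads the chain encoded here. Capitals mark the first 12 bases.
Tuba3b: ATGCGTGAGTGTatctctatccacgtgggg
Tuba3a: ATGCGTGAGTGTatctctatccacgtgggg
Tuba1a: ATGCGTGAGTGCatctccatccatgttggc
Tuba1b: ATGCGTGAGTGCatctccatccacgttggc
Tuba1c: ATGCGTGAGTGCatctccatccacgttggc
Tuba4a: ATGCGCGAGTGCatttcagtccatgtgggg
Tubb4b: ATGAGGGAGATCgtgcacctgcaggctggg
Tubb5: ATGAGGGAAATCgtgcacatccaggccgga
Tuba3a and Tuba3b shared all 30 bases, and their first 12 occurred at the coding start of no other gene among 20962 searched. The first 12 bases of Tuba1a, Tuba1b and Tuba1c were likewise found only in these 3 genes. The alpha-tubulins begin with one type of chain start and the beta-tubulins with another.

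Similarity of this kind limits how well each gene can be measured. Reads were 53 bases long, so every window of 53 bases in a member's transcript was searched for in the rest of the chromosomes and in the transcripts of other genes. The share of windows with an exact copy elsewhere was 31.6% for Tuba3b and 30.5% for Tuba3a, mostly in each other (29.1% of the windows of either). It was 90.4% for Tuba1b, 73.4% for Tuba1a and 61.0% for Tuba1c, which lie together on chromosome 15 (Tuba1b at chr15:98931429-98934390, Tuba1a at chr15:98949847-98953501 and Tuba1c at chr15:99029891-99038105) and share windows with one another and with processed pseudogenes or predicted genes. Tubb4b (chr2:25222158-25224702) had 56.3% and Tubb2b (chr13:34127008-34130354) had 55.7%, the latter mainly in the neighbouring paralog Tubb2a (37.4% of its windows). Tuba4a (chr1:75214972-75221261) had 4.94%, Tubb5 (chr17:35833920-35838301) 0.887%, and Tubb6 (chr18:67390731-67402749) none. How reads with several matches were counted is not given in the sources used here, so values of the Tuba1 genes, Tuba3 genes, Tubb2b and Tubb4b are uncertain to that extent. Among the genes sharing the most windows with each member and the genes overlapping it, 16 were predicted genes or pseudogenes, of which 2 are listed in the table. Genes sharing fewer windows were not counted. Tuba4a overlaps A630095N17Rik and Stk16, Tubb4b overlaps Fam166a, and Tuba1b overlaps the long noncoding RNA gene Gm41396, and reads in the overlaps cannot be told apart where the genes lie on the same strand, as Tuba4a and A630095N17Rik do, or where the strand was not used.

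**Figure D1:**
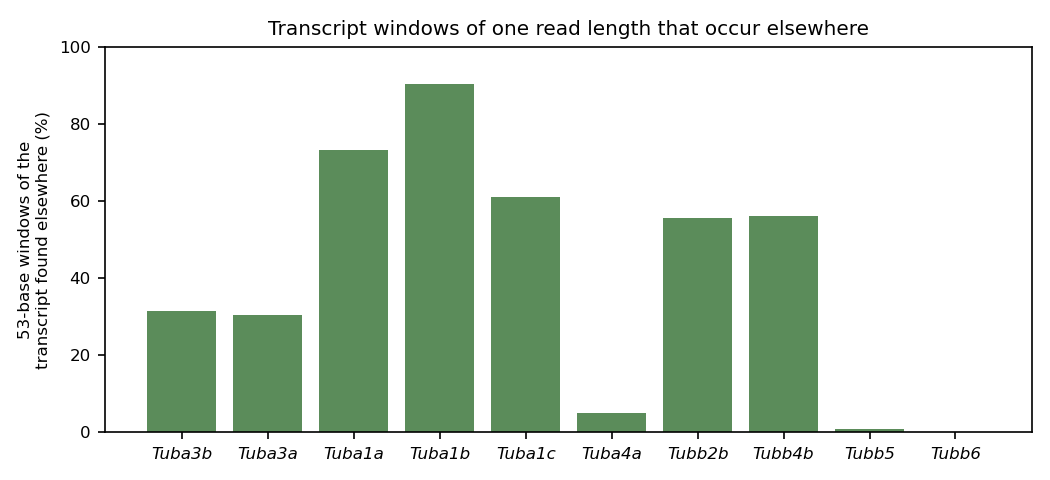
Share of the 53-base windows of each member's transcript that occur elsewhere in the chromosomes or in another gene's transcript (bars, %). Tuba1b is highest at 90.4%, Tuba3a and Tuba3b are near 31%, and Tuba4a, Tubb5 and Tubb6 have almost none.

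The values are TPM, which are read counts scaled for gene length to the same total in every library, so a level is a share of a library's RNA, and less of one transcript cannot be told apart from more of the others. TPM keeps no read counts, so no counting interval is given, and the FGO libraries were sequenced more deeply than the embryo libraries. FGO libraries had 16707 to 18559 genes above 0. The median rank correlation of each with the other libraries of its stage, control and K36M together, was 0.935 to 0.948. Embryo libraries had 10894 to 17329 genes above 0 and median rank correlations of 0.718 to 0.811. A low gene varied far more among embryos than among FGO pools. Oocyte markers (Zp1, Zp2, Zp3, Gdf9 and others) summed to 16130 to 16442 TPM in control FGOs, 14831 to 15473 TPM in K36M FGOs and 820 to 1627 TPM in embryos, and markers of the two-cell stage to 34.5 to 73.9 TPM in FGOs and 270 to 2440 TPM in embryos. The 8 granulosa and cumulus markers summed to 116 to 132 TPM in control and 125 to 192 TPM in K36M FGOs, and to 138 to 254 TPM in control and 70.9 to 423 TPM in K36M embryos. Nr5a2 alone averaged 71.0 TPM in control and 118 TPM in K36M FGOs. In embryos it averaged 174 TPM in controls and 201 TPM in K36M libraries, so these sums rest largely on this gene. The 6 blood markers summed to at most 0.380 TPM in FGOs, 21.1 TPM in control embryos and 59.5 TPM in K36M embryos. The 6 ovarian stroma markers summed to at most 9.18 TPM in FGOs, 26.3 TPM in control embryos and 57.4 TPM in K36M embryos. The 6 sperm markers summed to 18.7 to 35.4 TPM in FGOs, 0 to 55.2 TPM in control embryos and 0 to 16.9 TPM in K36M embryos. Whether cells of these types were present, and their part in the values below, was not tested. H3f3b was at 265 to 308 TPM in control and 377 to 418 TPM in K36M FGOs, a sum over both alleles that does not show the mutation itself.

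In FGOs, Tubb4b was by far the most abundant member. Its level in control FGOs was 1712 TPM ± 104 (SD, n = 3), followed by Tubb6 at 541 ± 30.5 TPM, Tuba3a at 246 ± 44.2 TPM, Tuba4a at 237 ± 10.4 TPM, Tubb5 at 163 ± 11.3 TPM, Tubb2b at 106 ± 7.71 TPM, Tuba1c at 94.2 ± 8.03 TPM, Tuba3b at 30.8 ± 16.9 TPM, Tuba1b at 12.5 ± 2.56 TPM and Tuba1a at 1.61 ± 0.995 TPM. The ranges of neighbours in this order did not overlap except for Tuba3a with Tuba4a and Tubb2b with Tuba1c. The order in K36M FGOs was alike, with Tuba1c at 114 ± 13.1 TPM and Tubb2b at 107 ± 6.65 TPM changing places within overlapping ranges. Tuba1a, a main alpha-tubulin of developing neurons, stood at 0.882 to 2.96 TPM over all 6 FGO libraries.

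In control embryos Tubb4b again led, at 1156 ± 353 TPM (SD, n = 7), and all 7 embryos had more of it than of Tubb6, at 226 ± 81.3 TPM. From there on each member's range overlapped that of the next in order. Tubb5 was at 164 ± 68.1 TPM, Tuba4a at 136 ± 69.6 TPM, Tuba3a at 52.96 ± 56.5 TPM, Tuba1c at 49.4 ± 31.0 TPM, Tuba1a at 33.1 ± 27.1 TPM, Tuba3b at 11.6 ± 19.3 TPM, Tubb2b at 11.0 ± 8.18 TPM and Tuba1b at 7.59 ± 7.12 TPM. In K36M embryos (n = 8) the first 6 places were held by the same members in the same order, from Tubb4b at 1218 ± 270 TPM to Tuba1c at 38.8 ± 26.04 TPM, and Tuba3b came next at 38.3 ± 25.9 TPM.

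**Figure D2:**
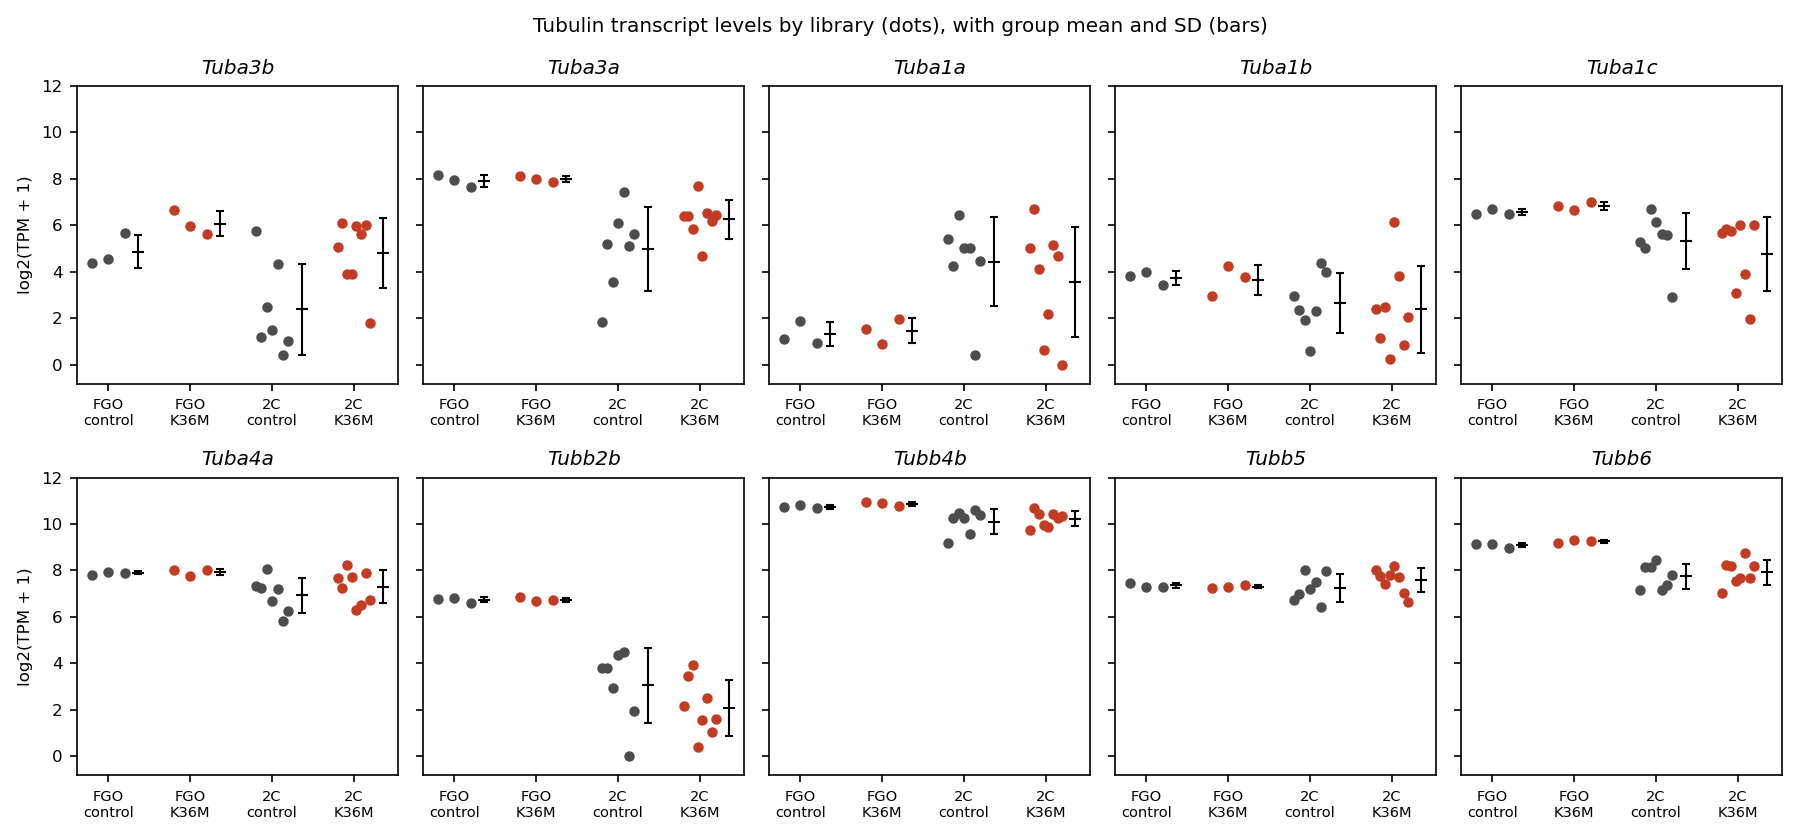
Level of each member in every library, as log2(TPM + 1), for control (grey) and K36M (red) FGOs and two-cell embryos (2C), with the group mean and SD as bars. FGO values lie close together for most members, but less so for Tuba3b, Tuba1a and, in K36M FGOs, Tuba1b. Embryos spread widely for Tubb2b and every alpha-tubulin but Tuba4a, and less for Tuba4a, Tubb4b, Tubb5 and Tubb6.

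Summed over the members, alpha-tubulin transcripts reached 622 ± 26.9 TPM and beta-tubulin transcripts 2523 ± 134 TPM in control FGOs, a ratio of 0.247 ± 0.00736. The ratio was 0.254 ± 0.0173 in K36M FGOs, and it ranged from 0.0881 to 0.386 in control and from 0.144 to 0.328 in K36M embryos. Tubb4b made up 67.9% ± 1.14 of the beta-tubulin members' TPM in control FGOs and 68.1% ± 1.70 in K36M FGOs, and 73.6% ± 5.89 and 72.3% ± 4.81 in control and K36M embryos. With every Tubb gene in the sum, which adds Tubb2a and Tubb3 at 256.5 TPM each in control FGOs, its share there was 56.4%. Tubb6 had 21.5% ± 0.572 of the beta members in control FGOs and 14.7% ± 3.59 in control embryos.

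Among the alpha members no single gene dominated. Tuba3a held 39.4% ± 5.62 and Tuba4a 38.2% ± 2.62 in control FGOs. In control embryos Tuba4a held 46.1% ± 11.0 and Tuba3a 19.1% ± 14.3, and the lowest embryo had 0.859% of Tuba3a. Tuba1a went from 0.257% ± 0.154 in control FGOs to 10.2% ± 5.797 in control embryos. Tuba3b held 5.04% ± 3.01 in control FGOs, 9.93% ± 3.08 in K36M FGOs, 3.60% ± 6.34 in control embryos and 10.4% ± 7.45 in K36M embryos. The control embryo mean was raised by the highest embryo, at 17.6%, and the median was 0.670%.

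**Figure D3:**
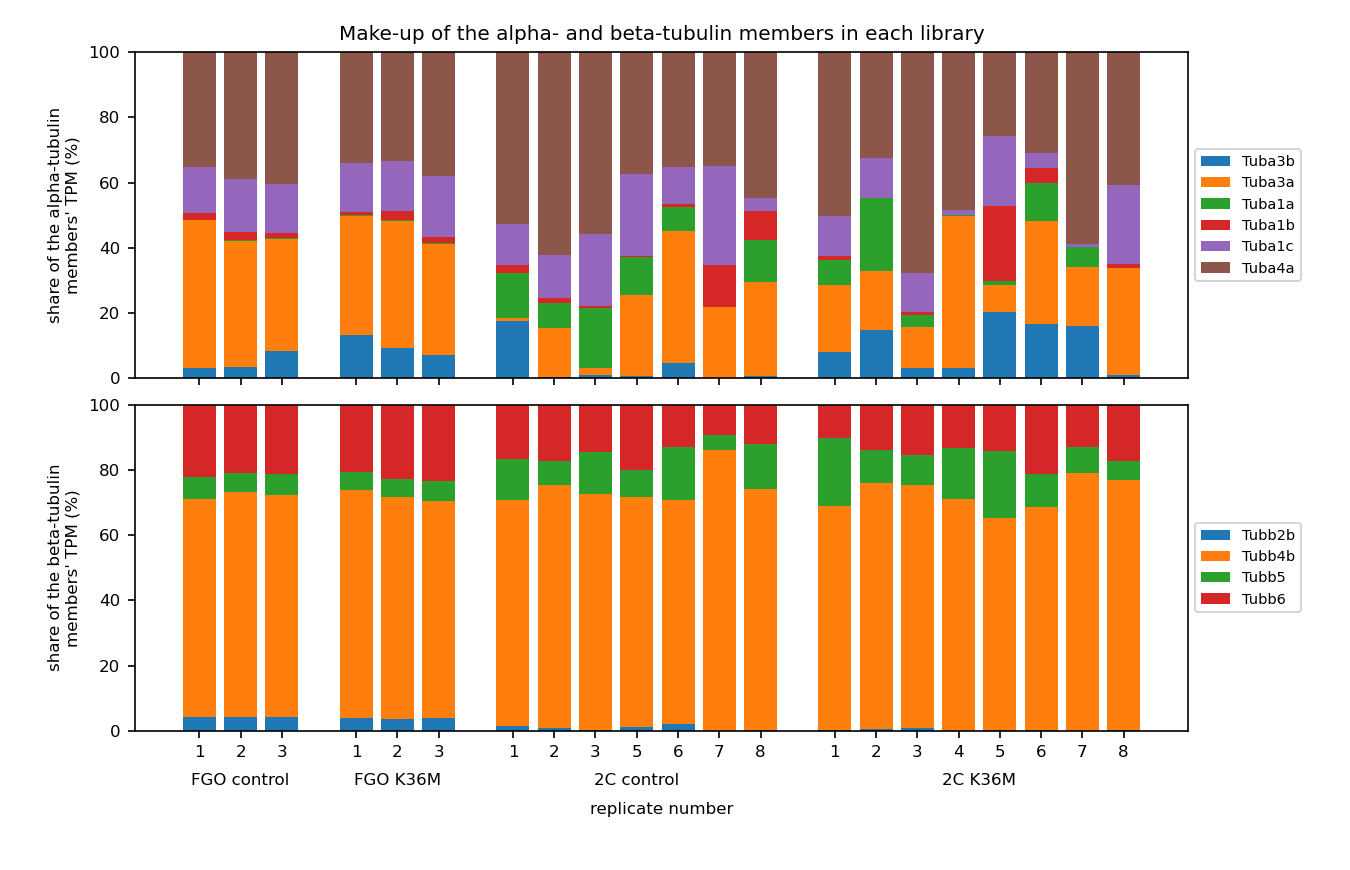
Share of each gene in the summed TPM of the 6 alpha-tubulin (top) and 4 beta-tubulin members (bottom), 1 stacked bar per library (%). Tubb4b is the main beta-tubulin in every library, at 65.1 to 85.9%, and Tubb5 ranges from 4.80 to 20.7% among embryos, while no alpha-tubulin leads in every library.

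Tuba3b, chosen for a higher level with K36M at both stages, had the largest K36M difference of the members at each. In the 3 control FGO libraries it was at 19.7, 22.4 and 50.3 TPM, and in the 3 K36M libraries at 100.3, 61.4 and 48.4 TPM. Control replicate 3 lay above the lowest K36M library, so the groups overlapped. The ratio of the mean levels was 2.27, and the difference was 1.22 (SE 0.36) on the log2(TPM + 1) scale, which was 0.93 without K36M replicate 1 and 1.62 without control replicate 3. In embryos, control levels ran from 0.360 TPM through a median of 1.84 TPM to 52.7 TPM, and K36M levels from 2.48 TPM through a median of 40.8 TPM to 68.1 TPM. All 8 K36M embryos lay above the control median, 3 lay above the highest control embryo, and the groups overlapped. The ratio of the means was 3.29 and the log2 difference 2.41 (SE 0.85), with a range of 2.08 to 2.97 over the 24 alternative settings. The control mean of 11.6 TPM rests largely on embryo 1 at 52.7 TPM, so the ratio depends on it. Without that embryo the log2 difference was 2.97.

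Its near-identical partner Tuba3a did not show the same picture in FGOs. The control FGO libraries had 290.7, 244.4 and 202.4 TPM and the K36M libraries 277.7, 254.4 and 230.1 TPM, fully interleaved, with a log2 difference of 0.06 (SE 0.13) that was negative in 2 of 14 settings. In embryos Tuba3a ran from 2.58 TPM through a median of 35.5 TPM to 170.8 TPM in controls and from 24.7 TPM through 83.9 TPM to 204.9 TPM in K36M embryos. The log2 difference was 1.29 (SE 0.63), and 0.76 without control replicate 1, the embryo with the least Tuba3a.

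The balance within the pair changed from library to library. Tuba3b made up 6.35, 8.40 and 19.9% of the Tuba3a plus Tuba3b TPM in control FGOs and 26.5, 19.4 and 17.4% in K36M FGOs. In control embryos the share ran from 1.05% through a median of 3.59% to 95.3%, and in K36M embryos from 2.83% through 31.3% to 71.2%. Control replicate 1 was the embryo at 95.3%, with 52.7 TPM of Tuba3b and 2.58 TPM of Tuba3a, and K36M replicate 5 the one at 71.2%. Tuba3a exceeded Tuba3b in all other libraries. The summed pair was 277 ± 30.1 TPM in control FGOs, 324 ± 50.2 TPM in K36M FGOs, 64.6 ± 58.2 TPM in control embryos and 126 ± 47.8 TPM in K36M embryos. It is free of how reads common to both genes are divided only if each such read was counted once. That is not known here, and dropped or doubly counted reads would change the sum too.

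**Figure D4:**
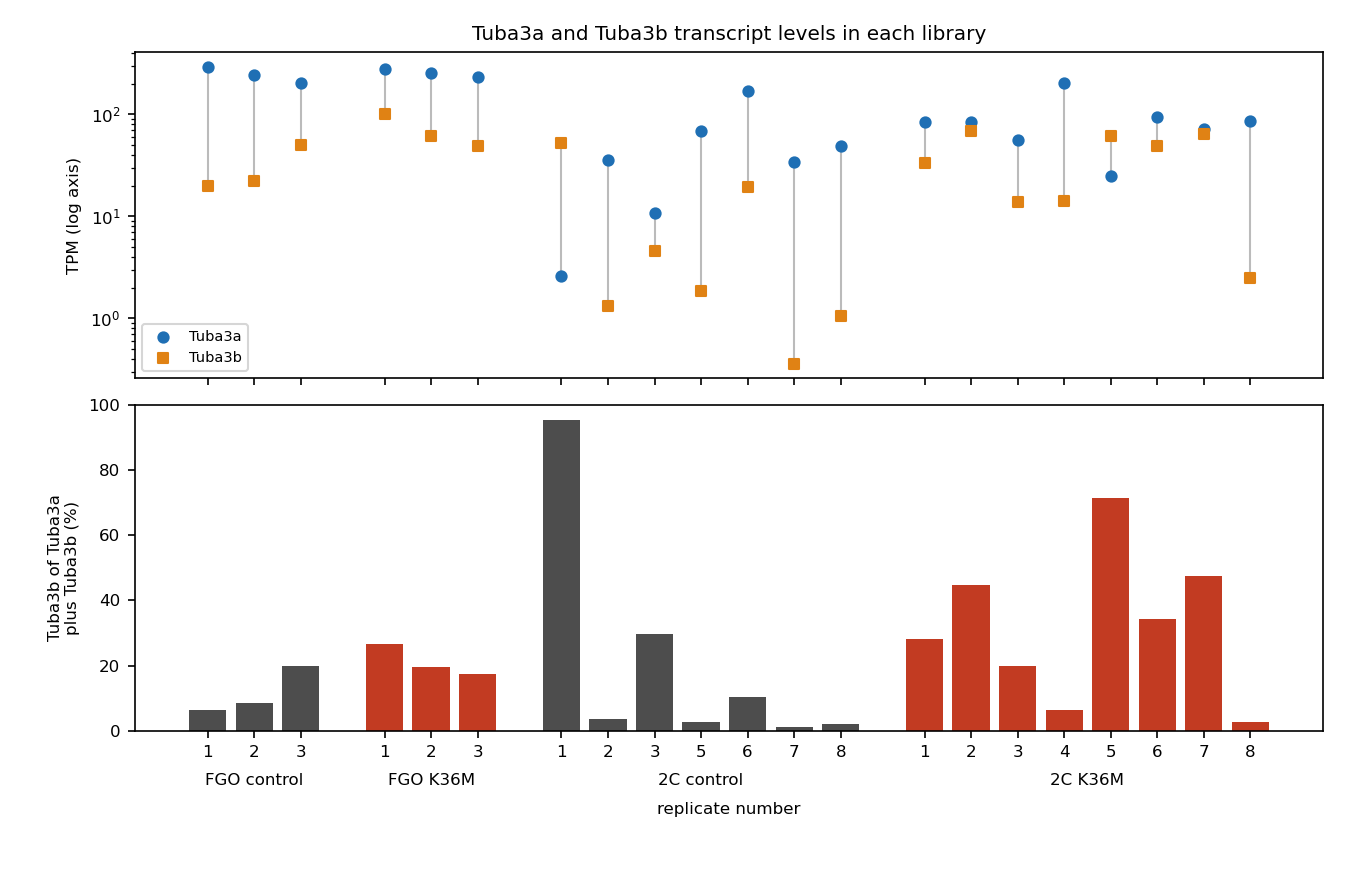
Top, Tuba3a (circles) and Tuba3b (squares) in every library, TPM on a log axis. Bottom, Tuba3b as a share of both (bars, %), control in grey and K36M in red; Tuba3b exceeds Tuba3a in control embryo 1 (95.3%) and K36M embryo 5 (71.2%) alone.

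The other members differed by -0.08 (Tuba1b) to 0.27 (Tuba1c) on the log2 scale in the K36M comparison of FGOs. Of all 10 members, 8 had a positive difference in FGOs with a median of 0.09, while 52.1% of the 13775 genes tested were positive with a median of 0.01. In embryos 6 of 10 were positive with a median of 0.14, while 36.2% of 17362 genes were positive with a median of -0.26. All 10 members passed the filter on low values (mean TPM of at least 1) in every comparison. Since the contrast took part in the choice, nothing is read from these counts.

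Tubb6, a beta-tubulin of the class V type, was the only member whose FGO groups did not overlap, as was the case for 15.6% of all genes tested in FGOs. Its control libraries had 506.3 to 559.2 TPM and its K36M libraries 581.0 to 628.1 TPM, a log2 difference of 0.17 (SE 0.07). In embryos its groups overlapped, as did those of all members, where 0.115% of genes did not, and the difference was 0.17 (SE 0.29), with -0.05 under array weights, 0.047 without K36M embryo 6 and 0.57 with control embryo 4 added. Tuba1c had 89.9, 103.4 and 89.2 TPM in control and 113.1, 101.0 and 127.2 TPM in K36M FGOs, a difference of 0.27 (SE 0.12), against -0.55 (SE 0.67) in embryos, where it was -0.15 without K36M embryo 7 and -0.99 with array weights. Tubb4b differed by 0.13 (SE 0.07) in FGOs and 0.12 (SE 0.20) in embryos, where it was -0.04 with quantile normalization and -0.04 without control embryo 1. Tuba4a and Tubb5 differed by 0.04 (SE 0.09) and -0.06 (SE 0.09) in FGOs and by 0.35 (SE 0.37) and 0.32 (SE 0.31) in embryos, where without control embryo 7 they were at 0.17 and 0.18. Tuba1a, Tuba1b and Tubb2b were within their SE of 0 in FGOs, at 0.16, -0.08 and 0.01. In embryos they had wide errors, with differences of -0.88 (SE 0.97), -0.25 (SE 0.87) and -0.97 (SE 0.81), and quantile normalization gave 0.66 for Tuba1b and -0.20 for Tubb2b. Tuba1a was at -0.37 without K36M embryo 8 and -1.54 without control embryo 7.

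**Figure D5:**
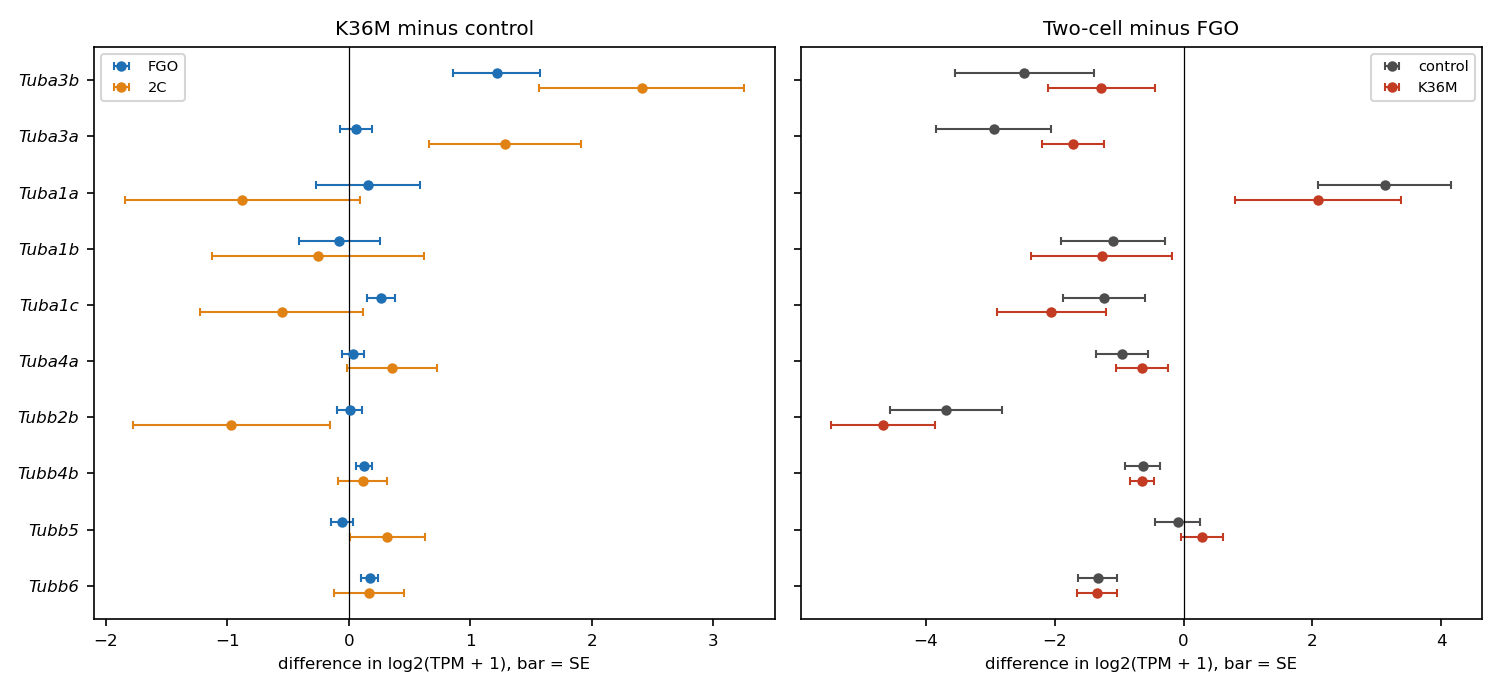
Difference in log2(TPM + 1) for each member (points, with the SE as bars), K36M minus control in FGOs and embryos (left) and two-cell minus FGO in control and K36M libraries (right). Tuba3b lies farthest to the right on the left panel (1.22 and 2.41), and Tubb2b farthest to the left on the right panel (-3.69 and -4.66).

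From the FGO to the late two-cell embryo, Tubb2b, Tuba3a and Tubb6 fell in both the control and the K36M libraries. The control and K36M comparisons share no library. FGO libraries were pools that received 10 second-round amplification cycles and embryo libraries single embryos that received 13, so stage and library type cannot be told apart. By limma with Benjamini-Hochberg adjustment, 4 of 10 members passed an adjusted p of 0.05 in controls, where 30.5% of 16914 genes did, 3 of them lower in embryos (15.5% of genes) and 1 higher (15% of genes). In K36M libraries 4 of 10 passed, where 25.3% of 16677 genes did, all 4 lower (15.4% of genes) and none higher (9.86% of genes). The median difference of the members was -1.17 in controls and -1.27 in K36M libraries, against 0.08 and -0.16 for all genes. Tubb2b, Tuba3a and Tubb6 were lower in both, as were 11.7% of the 15048 genes tested in both, and no member was called higher in both, as were 9.46% of these genes.

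Tubb2b, a beta-tubulin prominent in the developing brain, had the largest fall. Its FGO libraries had 97.4, 108.9 and 112.1 TPM in controls, and its control embryos ran from 0 (1 embryo) through a median of 12.9 TPM to 21.3 TPM, so the groups were far apart. The difference was -3.69 (SE 0.87, adjusted p = 0.00627, limma), lower in 7 of 7 embryos than in any control FGO library. In K36M libraries the levels were 101.0, 104.9 and 114.0 TPM in FGOs and 0.306 to 14.2 TPM in embryos, a difference of -4.66 (SE 0.80, adjusted p = 0.000782, limma), lower in 8 of 8 embryos. Tubb2b passed in all 19 alternative settings in controls and in 18 of 19 in K36M libraries.

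Tuba3a was lower in every embryo than in any FGO library of its genotype, by 2.95 on the log2 scale in controls (SE 0.90, adjusted p = 0.0250, limma) and by 1.72 in K36M libraries (SE 0.48, adjusted p = 0.0171, limma). Both calls needed all 3 FGO libraries: leaving out any one of them gave an adjusted p of 0.0701 to 0.0977 in controls and of 0.0623 to 0.0850 in K36M libraries, and adding control embryo 4, at 193.2 TPM, gave 0.0613. Tubb6 was at 541 TPM in control FGOs and at 140.8 to 348.0 TPM in control embryos, a difference of -1.33 (SE 0.30, adjusted p = 0.00500, limma). In K36M libraries it was at 610 TPM in FGOs and at 129.5 to 429.0 TPM in embryos, a difference of -1.34 (SE 0.31, adjusted p = 0.00571, limma). All 15 embryos lay below every FGO library of their genotype, and with control embryo 4 added the adjusted p in controls was 0.0573.

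Tuba1a was the only member called higher in embryos, and only in controls. It stood at 0.922 to 2.75 TPM in control FGOs, and 6 of 7 control embryos had 18.1 to 86.7 TPM, while replicate 7 had 0.354 TPM. The difference was 3.12 (SE 1.03, adjusted p = 0.0362, limma), and it passed in 8 of 19 alternative settings. Without control embryo 7 it was 3.79, with an adjusted p of 0.000503. It was lost without any of the 3 control FGO libraries (adjusted p of 0.0816 to 0.128) and without any of control embryos 1, 2, 3, 5 or 8 (0.0533 to 0.0624), and with control embryo 4 added, at 0.710 TPM (0.119). In K36M libraries 6 of 8 embryos lay above every FGO library, at 3.61 to 103.2 TPM, while replicates 4 and 8 had 0.554 and 0 TPM, and the difference of 2.09 (SE 1.29) gave an adjusted p of 0.267 by limma, or 0.0217 with array weights; a difference between the genotypes was not tested. Of all 53-base windows of Tuba1a, 73.4% occur elsewhere, as given above.

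Tubb4b passed in K36M libraries and not in controls, at -0.65 (SE 0.18, adjusted p = 0.0182, limma), with all 8 embryos below every K36M FGO library. In controls the size was much the same, at -0.64 (SE 0.27, adjusted p = 0.0955, limma), with all 7 embryos below every FGO library, and a difference between the genotypes was not tested. The K36M call was lost without any of the 3 K36M FGO libraries (adjusted p of 0.0641 to 0.0983), with quantile normalization (0.303) and without the mean-variance trend (0.236). The control fall passed with median-of-ratios scaling (-0.87, adjusted p = 0.0366, limma) and with array weights (-0.54, adjusted p = 0.00502, limma).

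The remaining members did not pass at either genotype. Tuba3b differed by -2.47 (SE 1.08, adjusted p = 0.102, limma) in controls, with 6 of 7 embryos below every FGO library. Without control embryo 1, the embryo at 52.7 TPM, the difference was -3.03 with an adjusted p of 0.0212. In K36M libraries it differed by -1.28 (SE 0.83, adjusted p = 0.297, limma), with 4 of 8 embryos below every FGO library. Tuba4a differed by -0.96 (SE 0.41, adjusted p = 0.0951, limma) in controls, and by -1.14 with an adjusted p of 0.0347 without control embryo 3. It also passed with median-of-ratios scaling (-1.19) and array weights (-0.82). In K36M libraries its difference was -0.64 (SE 0.40, adjusted p = 0.280, limma). Tuba1c differed by -1.24 (SE 0.63, adjusted p = 0.161, limma) in controls and by -2.06 (SE 0.85, adjusted p = 0.0924, limma) in K36M libraries, where all 8 embryos lay below every FGO library, and passed in both with array weights (0.0195 and 0.000792). Tuba1b differed by -1.09 (SE 0.81) and -1.27 (SE 1.09). With array weights Tuba3b and Tuba1b also passed in controls (adjusted p of 0.00378 and 0.0273). Tubb5, a beta-tubulin expressed in most tissues, was the flattest member, at 163 TPM in control FGOs and 164 TPM in control embryos, with differences of -0.09 (SE 0.35) in controls and 0.28 (SE 0.33) in K36M libraries.

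The other genes of the tubulin family in the table were Tuba8, Tubal3, Tubb1, Tubb2a, Tubb3 and Tubb4a, the gamma-tubulins Tubg1 and Tubg2, which nucleate microtubules, and the centriolar Tubd1 and Tube1. None of them passed in either K36M comparison. In controls 3 of 9 tested fell from FGO to embryo, where 15.5% of all genes fell, and none rose: Tubal3 from 40.2 to 2.79 TPM (log2 difference -4.17, SE 0.89, adjusted p = 0.00352, limma), Tubb3 from 257 to 83.4 TPM (-1.67, SE 0.33, adjusted p = 0.00209, limma) and Tubb2a from 256.5 to 80.0 TPM (-2.26, SE 0.69, adjusted p = 0.0249, limma). In K36M libraries 4 of 9 fell, where 15.4% of all genes fell, namely Tubal3 (-5.23), Tubb3 (-2.48), Tubd1 (-4.33) and Tube1 (-3.63). Tubb2a, at -2.51, had an adjusted p of 0.0523 there. Tubg1 was at 75.4 TPM in control FGOs and 164 TPM in control embryos, with an adjusted p of 0.275. The median of these genes was -1.67 in controls and -2.48 in K36M libraries, against 0.08 and -0.16 for all genes.

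Genes that act on tubulin were looked at in 5 further lists. With the other tubulins they held 78 genes, none of which passed an adjusted p of 0.05 by limma in either K36M comparison, where 0.00726% of all genes did in FGOs and 0% in embryos. At an unadjusted p under 0.05 stood 5 of 72 tested in FGOs and 7 of 74 tested in embryos, where 10.5% and 7.71% of all genes did. Between the stages 27 of 75 tested passed in controls, 9 higher and 18 lower, and 24 of 75 in K36M libraries, 7 higher and 17 lower. Of all genes, 30.5% passed in controls (15% higher and 15.5% lower) and 25.3% in K36M libraries (9.86% higher and 15.4% lower), and the counts of each list below are to be read against these shares.

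Both partners of the tubulin mRNA feedback that passed fell. Ttc5, which recognises nascent tubulin, went from 28.5 to 4.18 TPM in controls (-3.21, SE 0.93, adjusted p = 0.0192, limma) and by -4.29 in K36M libraries. Cnot11, a subunit of the CCR4-NOT deadenylase, went from 167 to 26.3 TPM in controls (-2.78, SE 0.46, adjusted p = 0.000659, limma) and by -4.67 in K36M libraries. These were 2 of the 3 genes of this list at either genotype, and Scaper passed at neither.

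Of 20 folding genes (the tubulin cofactors, Arl2, prefoldin and the chaperonin CCT), 5 fell and 1 rose in controls, and 5 fell and 2 rose in K36M libraries, against 30.5% and 25.3% of all genes that passed. Cct5 and Cct6a, subunits of the same chaperonin ring, went in opposite directions: Cct5 from 717 to 169 TPM (-2.14, SE 0.26, adjusted p = 6.6e-05, limma) and Cct6a from 25.0 to 223 TPM (2.97, SE 0.44, adjusted p = 0.000300, limma) in controls, with differences of -1.87 and 3.27 in K36M libraries. Arl2, the small GTPase that works with the tubulin cofactors, fell from 78.0 to 0.799 TPM (-5.72) in controls and fell by 5.77 on the log2 scale in K36M libraries. Arl2, like Svbp below and Tubal3 in K36M embryos, averaged under 1 TPM in embryos, so these genes passed the filter through their FGO level and the size of their log2 differences depends on the pseudocount of 1.

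Of 19 modification genes tested, 4 rose and 3 fell in controls and 2 rose and 2 fell in K36M libraries, against 30.5% and 25.3% of all genes that passed. Svbp, the partner of the detyrosinating vasohibins, fell from 19.6 to 0.0730 TPM in controls (-4.27, SE 0.53, adjusted p = 7.31e-05, limma) and fell by 3.85 on the log2 scale in K36M libraries. Ttl, the ligase that adds the C-terminal tyrosine to alpha-tubulin, rose from 6.06 to 35.5 TPM in controls (2.34, SE 0.43, adjusted p = 0.00123, limma), and differed by -0.27 (SE 1.02, adjusted p = 0.858) in K36M libraries. Ttll12 rose in controls (3.05, adjusted p = 0.000573, limma) and the deacetylase Sirt2 fell (-3.00, adjusted p = 0.0129, limma), and in K36M libraries they had adjusted p-values of 0.341 and 0.316. Whether these changes differed between the genotypes was not tested.

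Of 10 nucleation genes, 1 rose and 2 fell in controls and 1 rose in K36M libraries, against 30.5% and 25.3% of all genes. Tubgcp6, a component of the gamma-tubulin ring complex, rose from 1.46 to 30.4 TPM in controls (3.62, SE 0.53, adjusted p = 0.000242, limma) and by 2.62 in K36M libraries. Nedd1, which targets that complex to the centrosome and spindle, and Tubgcp5 fell in controls, with log2 differences of -1.49 and -1.29 and adjusted p-values of 0.0251 and 0.0270 by limma. Of 14 severing and dynamics genes tested, 3 rose and 3 fell in controls and 2 rose and 4 fell in K36M libraries, against the same shares. The severing subunit Katna1 rose from 105 to 330 TPM (1.58, SE 0.31, adjusted p = 0.00184, limma) and the depolymerising kinesin Kif2a from 98.2 to 180 TPM (0.85, SE 0.23, adjusted p = 0.0136, limma). The microtubule-associated Map4 fell from 158 to 83.9 TPM (-0.92, SE 0.26, adjusted p = 0.0172, limma) and Fignl1 fell by 2.71 on the log2 scale (adjusted p = 0.0338, limma). These 4 also passed in the same direction in K36M libraries.

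Genes whose pattern was most like that of Tuba3b were ranked by Pearson's r of log2(TPM + 1), centred on the mean of each stage, over 21 libraries and 12734 genes whose mean was 1 TPM or more at both stages. The first were Slco5a1, an organic anion transporter family member (r = 0.784), Fkbp1a, the FK506-binding protein FKBP12 (0.757), Rras2, a small GTPase (0.745), Agk, a mitochondrial lipid kinase (0.710), and Tmod3, which caps actin filaments (0.706). The K36M difference for which Tuba3b was chosen was left in by this centring, so genes higher in K36M embryos, as all 5 were by their mean TPM, are favoured. The libraries behind each r are the same, so their depth and quality are shared by all genes, and r is a description only. Tuba3a was at rank 5837 with an r of 0.01, and the member most like Tuba3b was Tuba4a at rank 991 with an r of 0.35.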

How the data were processed

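The RNA-seq comparison of FGO pools with single two-cell embryos was made from the deposited TPM table of 22 libraries, 21 of them used in the main comparisons, all mapped to a group by their labels. The SMART-Seq stranded reads of 53 bases in each pair were processed by the authors with Trim Galore, HISAT2, BEDTools (removal of rRNA reads), featureCounts and edgeR on mm10, and the authors deposited TPM values. The gene lengths, strand setting and treatment of reads with several matches are not given in the sources used here. TPM keeps no read counts, so no count test was run. By the study's library statistics FGO libraries were sequenced more deeply than embryo libraries, and these totals were not used.

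Values of log2(TPM + 1) entered linear models in limma 3.58.1 (R 4.3.3, eBayes with trend) for all genes averaging 1 TPM or more, separately for each of 4 comparisons, with Benjamini-Hochberg adjustment over all genes and a threshold of 0.05. Where labels do not state separate females, p-values measure only the spread between libraries. The script was tested on simulated data. RefSeq GRCm38.p6 gave positions, transcripts and promoters, searched with Python 3.11.15, numpy 2.4.6, numba 0.67.0 and biopython 1.88, and figures were drawn with matplotlib 3.10.9.

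Members and gene lists were chosen with earlier results of these data known. All members were described. All other tubulins were open to naming, and a gene of another list was named where it passed in a K36M comparison or was among the 2 smallest p-values per direction past the threshold in the control stage comparison. The 5 genes most like Tuba3b were also named. Alternatives were another pseudocount, other filters, quantile and median-of-ratios scaling, no trend, array weights, a replicate block, each library left out and control embryo 4 added. Leaving out embryos in the stage comparisons was chosen after seeing the data.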

Additional observations from a re-analysis of the deposited data

Results flagged for a closer look

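Among the 10 members in control and K36M embryos, 20 groups of libraries were searched for a library standing apart, and 1 was found, which is the number that chance gives. Control embryo 7 had 0.354 TPM of Tuba1a while the other 6 control embryos had 18.1 to 86.7 TPM. Its gap to the nearest embryo was 0.635 of the range on the log2(TPM + 1) scale, above the 0.568 allowed for 7 values. Without it the stage difference of Tuba1a in controls was 3.79 on the log2 scale (adjusted p = 0.000503, limma), against 3.12 (0.0362) with it.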

How the results depend on the processing

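The number of genes called differing with K36M was unstable around 0. In FGOs 1 gene was called, and 0 with a pseudocount of 0.1, all genes above 0, no trend or the replicate block; leaving out each library gave 0 to 300, with 300 without K36M replicate 1. In embryos 0 were called, 5 without the trend and 1 with array weights, and leaving out each embryo gave 0 to 1. The stage comparisons gave 5159 calls in controls and 4217 in K36M libraries, and 9396 and 8212 with array weights. Leaving out each library gave 3015 to 5966 and 2342 to 4439, the lowest values without an FGO library.

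No sign was found that replicate numbers pair the libraries, but with so few libraries per group the check cannot tell whether they do. The correlations of same-numbered libraries' deviations from their group means ran from -0.101 to 0.101 over 16 pairs, and the replicate block gave 2385 calls in the K36M stage comparison and 5014 in controls. Under the block Tubb6 was at -1.26 in controls (adjusted p = 0.0505, limma) and -1.43 in K36M libraries (0.0805), Tubb2b at -3.57 in K36M libraries (0.0605) and Tubb4b at -0.57 (0.255).

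Of 380 values of members in the stage comparisons, 340 kept their direction and side of the threshold, 28 lost the call, 11 gained it and 1 reversed: leaving out each embryo or FGO library put Tubb5 in controls at -0.22 to 0.046, the highest without control embryo 7. The 379 K36M values of the members moved by less than 1 SD between libraries, but 21 had the other sign, 14 in FGOs (Tuba3a, Tuba1a, Tuba1b, Tuba4a and Tubb2b) and 7 in embryos (Tuba1b, Tubb4b and Tubb6). Of 50 isotype shares, 10 moved by more than 1 SD, all of them beta-tubulins when Tubb2a and other genes entered the sum. Depth was lower in embryo than in FGO libraries, and its part in the values of low genes was not tested.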
